A study of Homo sapiens with 6 samples.

Results

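The 26S proteasome is the protease of the cytosol and nucleus that degrades proteins tagged with ubiquitin. Described here are the 34 genes of its subunits, found by matching the gene identifiers of the deposited tables to symbols in GENCODE 29, among 25969 genes in all. All 34 were found, 17 of the core particle and 17 of the regulatory particle, and all 34 passed the filter on low values. RNA was sequenced from cells labelled LNCaP, a prostate cancer line grown from a metastasis in a lymph node. In 3 libraries the cells carried a vector for VIM-AS1 overexpression and have that genotype in the labels, and in 3 they carried pcDNA3.1 and are labelled WT. VIM-AS1 is a noncoding RNA transcribed opposite the vimentin gene VIM. Separate cultures are not stated, so the p-values measure only how far these libraries vary, which may be technical.

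The core particle is a barrel of stacked rings. The outer rings are built from the alpha subunits (PSMA genes), which gate the entrance, and the inner rings from the beta subunits (PSMB genes), of which PSMB5, PSMB6 and PSMB7 carry the proteolytic sites. PSMB8, PSMB9 and PSMB10 are interferon-inducible and take the places of PSMB5, PSMB6 and PSMB7 in the immunoproteasome. The regulatory particle has a base, with a ring of ATPases (PSMC genes) that unfold substrates and the scaffold and ubiquitin-binding subunits PSMD1, PSMD2 and PSMD4, and a lid of PSMD subunits, in which PSMD14 removes ubiquitin chains. When proteasome activity is short, cells make more of the subunits through the transcription factor NFE2L1.

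The libraries held 14762893 to 19889745 recovered reads. VIM-AS1 was present at 2197, 2019 and 2763 normalized reads in the VIM-AS1 libraries, against 8.63, 1.22 and 5.53 in the pcDNA3.1 libraries. The markers of the labelled cell line were largely missing. KLK3, the prostate-specific antigen gene, had 0 reads in the 3 VIM-AS1 libraries and 2, 0 and 0 reads in the pcDNA3.1 libraries, which allows up to 0.151 to 0.203 CPM in a library with 0 reads. FOLH1 had 0 reads in the VIM-AS1 libraries and 4, 2 and 0 in the pcDNA3.1 libraries, and HOXB13 had 533 to 824 in the VIM-AS1 libraries against 508 to 760 in the pcDNA3.1 libraries. CD44, a gene of basal prostate cells, had 2456 to 2605 reads against 2097 to 3186, and AXL had 1539 to 2244 against 1288 to 1454. Of the other genes listed for basal or androgen receptor negative prostate cells, CAV1 had 1003 to 1651 against 766 to 1710. The basal genes KRT5 (0 to 4 against 0 to 3), KRT14 (2 to 7 against 2 to 8) and TP63 (3 to 12 against 18 to 49) had few reads. The cells are therefore called "labelled LNCaP" here. KLK2, TMPRSS2 and STEAP2 had no entry under these symbols among the deposited genes, so no value is given. VIM-AS1 replicate 3 and pcDNA3.1 replicate 3, called the third libraries below, stood apart from their groups: over 13175 genes, the deviations of the pair from their group means correlated with a Pearson r of 0.84, where genes are not independent replicates. Among the 34 proteasome genes this shared shift ran from -1.02 (PSMB10) to 1.06 (PSMA2) log2 units and followed GC content, with a Spearman rho of -0.79 over the 34 genes, which share the same libraries.

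Part of the proteasome genes were higher in the VIM-AS1 libraries, and most of these belong to the regulatory particle. In limma with a term for the third libraries, 12 of the 34 genes had an adjusted p under 0.05, all of them higher, where 11.5% of all 20927 tested genes were called higher and 7.94% lower. Most proteasome genes are abundant, 31 of the 34 averaging 100 normalized reads or more, and of the 9758 tested genes with such a mean 23% were called higher and 9% lower. Of the regulatory particle 10 of 17 genes were called, and of the core particle 2 of 17. The median log2 fold change was 0.28 over the 34 genes, 0.40 over the regulatory particle and 0.21 over the core particle, beside 0.11 over these abundant genes and -0.024 over all tested genes. Below, "rose" stands for an adjusted p under 0.05 in this fit, "log2 fold change" for its coefficient on the log2(normalized reads + 1) scale, VIM-AS1 over pcDNA3.1, and ± after it for its SE.

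Without the term for the third libraries limma called none of the 34 genes, where 0.0143% of all tested genes were called higher, 0.00956% lower and 0.0239% in either direction (5 of 20927), and the lowest adjusted p of a proteasome gene was 0.13. At an unadjusted p under 0.05, 7 of the 34 were higher and 0 lower in that fit, beside 5.94% of all tested genes higher and 7.69% lower. edgeR's quasi-likelihood test on recovered reads called 0 of the 34 without a term, beside 2 of all 20927 tested genes higher and 2 lower. DESeq2 without a term called 1 of the 34 higher, beside 0.636% of all tested genes higher and 1.05% lower. With the term edgeR called 11 of the 34 higher, each among the 12, beside 11.4% of all tested genes higher and 8.64% lower. With the replicate number as a block instead, limma called 18 of the 34, again all higher and including the same 12, beside 15.8% of all tested genes called higher and 10.8% lower, and 31.6% higher among those with a mean of at least 100. Leaving out the third library of either group ended all 12 calls: 0 of 34 were called, beside 0.674% of all tested genes called higher and 0.664% lower without VIM-AS1 replicate 3. The term and the replicate block were both chosen from these data, so their p-values may be too small.

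**Figure D1:**
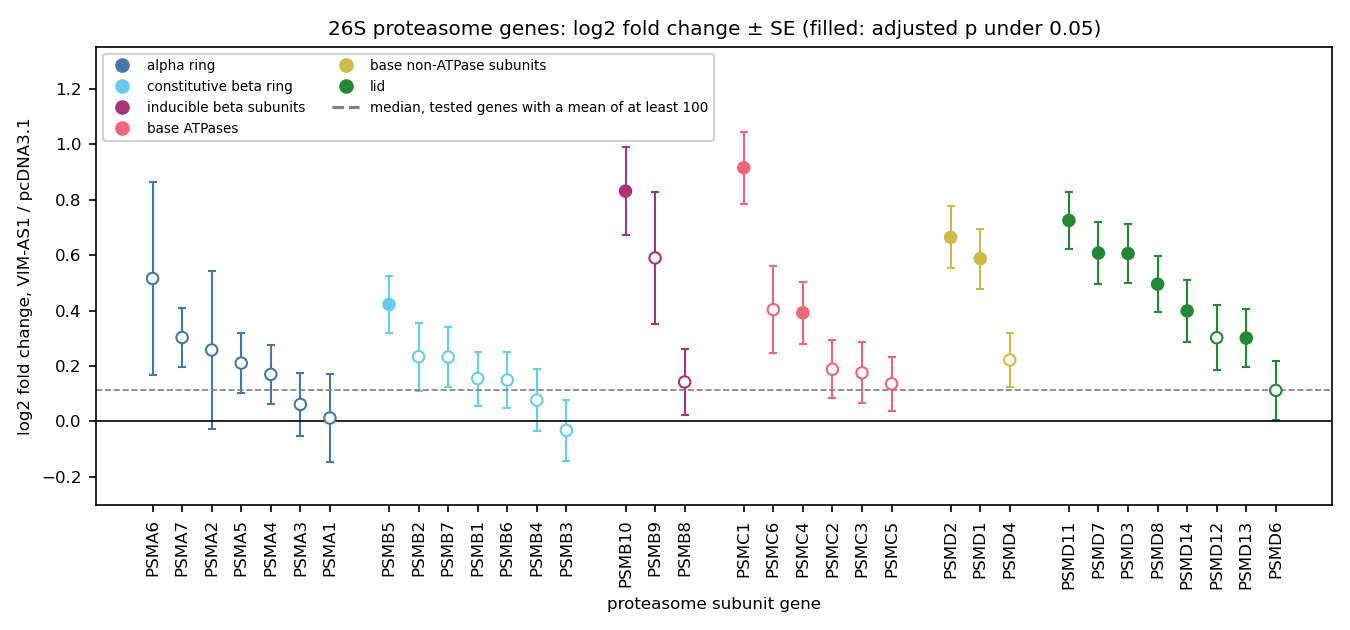
Log2 fold change, VIM-AS1 over pcDNA3.1, of the 34 proteasome genes on the vertical axis, by subcomplex along the horizontal axis and ordered by size within each, from limma with a term for the third libraries (bars: SE; filled points: adjusted p under 0.05; dashed line: median of the 9758 abundant genes). The filled points lie mostly in the base and the lid, and none lies in the alpha ring.

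Promoter windows were read for 29 of the 34 genes from RefSeq (GRCh38.p14, 250 bases before to 50 after a start), since NFE2L1 binds antioxidant response elements with small MAF factors. The core of that element, TGACNNNGC on either strand, was found for 8 of the 29 genes (27.6%), beside 16.1% of all 27305 genes with a window. It was found for 3 of the 12 genes that rose (PSMC4, PSMD1 and PSMD3) and for 5 of the 17 others. PSMC1, PSMD2 and PSMD11, the genes with the largest log2 fold changes of the regulatory particle, held none of the 3 motifs searched in these windows. The CCAAT box was found for 16 of 29 (55.2%, beside 39.7% of all genes), and the core of the interferon-stimulated response element for 4 of 29 (13.8%, beside 4.38%), namely PSMA4, PSMB4, PSMB8 and PSMB10. A match is a description of letters and shows no binding.

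The 250 bases before the start are shown for PSMD3, which rose, and PSMB3, which did not, both with the antioxidant response core in capitals, for PSMB10 with the interferon response core in capitals, and for PSMD11 with no match. The stretches are chr17:39980557-39980806 on the plus strand for PSMD3, chr17:38752491-38752740 on the plus strand for PSMB3, chr16:67936851-67937100 on the minus strand for PSMB10 and chr17:32444260-32444509 on the plus strand for PSMD11, each written from 5′ to 3′ along the gene. The core lies 37 to 29 bases before the start of PSMD3 and 104 to 96 bases before that of PSMB3, and the interferon core 21 to 12 bases before that of PSMB10.
PSMD3: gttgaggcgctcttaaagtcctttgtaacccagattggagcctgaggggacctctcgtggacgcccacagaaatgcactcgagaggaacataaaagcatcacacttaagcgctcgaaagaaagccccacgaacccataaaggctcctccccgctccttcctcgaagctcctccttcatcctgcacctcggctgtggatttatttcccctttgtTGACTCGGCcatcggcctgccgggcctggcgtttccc
PSMB3: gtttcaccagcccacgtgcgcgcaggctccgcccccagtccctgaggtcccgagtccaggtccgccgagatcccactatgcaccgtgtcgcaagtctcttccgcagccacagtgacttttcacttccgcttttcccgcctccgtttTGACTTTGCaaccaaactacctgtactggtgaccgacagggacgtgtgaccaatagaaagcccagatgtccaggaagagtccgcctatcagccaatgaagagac
PSMB10: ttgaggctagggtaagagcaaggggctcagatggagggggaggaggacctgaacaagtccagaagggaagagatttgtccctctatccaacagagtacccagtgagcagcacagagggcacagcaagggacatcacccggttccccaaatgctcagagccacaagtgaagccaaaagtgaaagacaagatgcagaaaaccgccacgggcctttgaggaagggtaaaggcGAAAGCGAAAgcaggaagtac
PSMD11: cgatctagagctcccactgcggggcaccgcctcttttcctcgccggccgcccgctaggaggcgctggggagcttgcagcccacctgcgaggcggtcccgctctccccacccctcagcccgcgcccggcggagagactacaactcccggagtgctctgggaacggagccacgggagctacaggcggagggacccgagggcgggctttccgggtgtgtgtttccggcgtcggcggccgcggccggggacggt
PSMD3 and PSMB3 both hold the core upstream of the start, and PSMD3 has another match on the opposite strand at bases 34 to 42 after it. Their log2 fold changes were 0.61 ± 0.11 for PSMD3 and -0.032 ± 0.11 for PSMB3. A link between the core and these values was not tested.

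The lid held the most called genes, with 6 of its 8 subunits higher and a median log2 fold change of 0.45. PSMD11, a lid subunit that reaches down to the alpha ring of the core particle, had 1971, 1937 and 2054 normalized reads in the VIM-AS1 libraries, against 1187, 1327 and 1103 in the pcDNA3.1 libraries. Every VIM-AS1 library lay above every pcDNA3.1 library, and the gene rose by a log2 fold change of 0.72 ± 0.10 (limma, adjusted p = 7.79e-05). PSMD7, the structural partner of the deubiquitinase PSMD14, had 653.2, 784.8 and 858.5 in the VIM-AS1 libraries, against 470.0, 478.9 and 552.1 in the pcDNA3.1 libraries. Its groups also did not overlap (log2 fold change 0.61 ± 0.11, limma, adjusted p = 0.000771). Of the principal PSMD7 transcript 50.4% also lies in a noncoding gene on the opposite strand, which had at most 51.3 normalized reads in a library. PSMD3, a scaffold subunit of the lid, had 5600, 5921 and 3794 normalized reads in the VIM-AS1 libraries, against 3492, 4179 and 2447 in the pcDNA3.1 libraries. The third library was the lowest in both groups, so the groups overlapped, and the log2 fold change was 0.61 ± 0.11 (limma, adjusted p = 0.000459).

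PSMD8, the last subunit to join the lid in yeast, showed the same arrangement with 4734, 4907 and 3315 normalized reads in the VIM-AS1 libraries against 3194, 3567 and 2413 in the pcDNA3.1 libraries, and rose (log2 fold change 0.50 ± 0.10, limma, adjusted p = 0.00171). The deubiquitinase PSMD14 was highest in the third library of each group, with 436.2, 484.0 and 855.5 in the VIM-AS1 libraries and 357.8, 349.4 and 629.5 in the pcDNA3.1 libraries. It rose by 0.40 ± 0.11 (adjusted p = 0.0168). PSMD13 was close to the threshold (0.30 ± 0.10, adjusted p = 0.0488), and it lost the call when trends with GC content and length were removed (adjusted p = 0.070). PSMD12 had nearly the same log2 fold change, 0.30 ± 0.12, with an adjusted p of 0.077, or 0.0142 with the replicate block. PSMD6 had the lowest value of the lid: 605.8, 613.3 and 787.9 normalized reads in the VIM-AS1 libraries, against 572.7, 591.3 and 684.8 in the pcDNA3.1 libraries, a log2 fold change of 0.11 ± 0.11.

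The large scaffold subunits of the base rose as well. PSMD2, on which shuttle factors that deliver ubiquitin-tagged proteins dock, had 9552, 10510 and 7304 normalized reads in the VIM-AS1 libraries, against 6196, 7124 and 4178 in the pcDNA3.1 libraries. The lowest VIM-AS1 library stood just above the highest pcDNA3.1 library, and the log2 fold change was 0.66 ± 0.11 (limma, adjusted p = 0.000346). PSMD1, the other scaffold of the base, had 819.7, 747.5 and 1275 in the VIM-AS1 libraries, against 539.1, 557.1 and 766.1 in the pcDNA3.1 libraries. Its groups overlapped through VIM-AS1 replicate 2 and pcDNA3.1 replicate 3, and it rose by 0.59 ± 0.11 (limma, adjusted p = 0.000725). The ubiquitin receptor PSMD4 had 4011, 4128 and 3234 in the VIM-AS1 libraries and 3587, 3526 and 2670 in the pcDNA3.1 libraries, and did not pass (0.22 ± 0.10, adjusted p = 0.13, or 0.0289 with the replicate block).

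Of the ATPases of the base 2 of 6 rose. PSMC1 had the largest log2 fold change of the 34 genes, 0.91 ± 0.13 (limma, adjusted p = 6.91e-05). It had 572.1, 587.9 and 783.8 normalized reads in the VIM-AS1 libraries, against 379.9, 306.6 and 336.5 in the pcDNA3.1 libraries, with no overlap. Exons of PSMC1 share 4671 bp, 75.8% of their length, with the gene NRDE2 on the opposite strand. No source states that the kit marks strand, so reads from that stretch cannot be told apart between the genes. NRDE2 itself had a log2 fold change of 0.35 (adjusted p = 0.0504). PSMC4 rose by 0.39 ± 0.11 (adjusted p = 0.0173), with 3685, 4001 and 2768 normalized reads in the VIM-AS1 libraries and 2488, 3233 and 2246 in the pcDNA3.1 libraries. PSMC5 was the lowest of the ATPases, with 2400, 2504 and 2031 in the VIM-AS1 libraries, against 2325, 2225 and 1779 in the pcDNA3.1 libraries (0.14 ± 0.10, adjusted p = 0.38). Of the principal PSMC5 transcript 27.2% also lies in FTSJ3 on the opposite strand, which had a log2 fold change of 0.87 (adjusted p = 7.39e-06). PSMC2 and PSMC3 had log2 fold changes of 0.19 and 0.18, and PSMC6 had 0.40 with a wider SE of 0.16 (adjusted p = 0.0795, or 0.00772 with the replicate block).

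**Figure D2:**
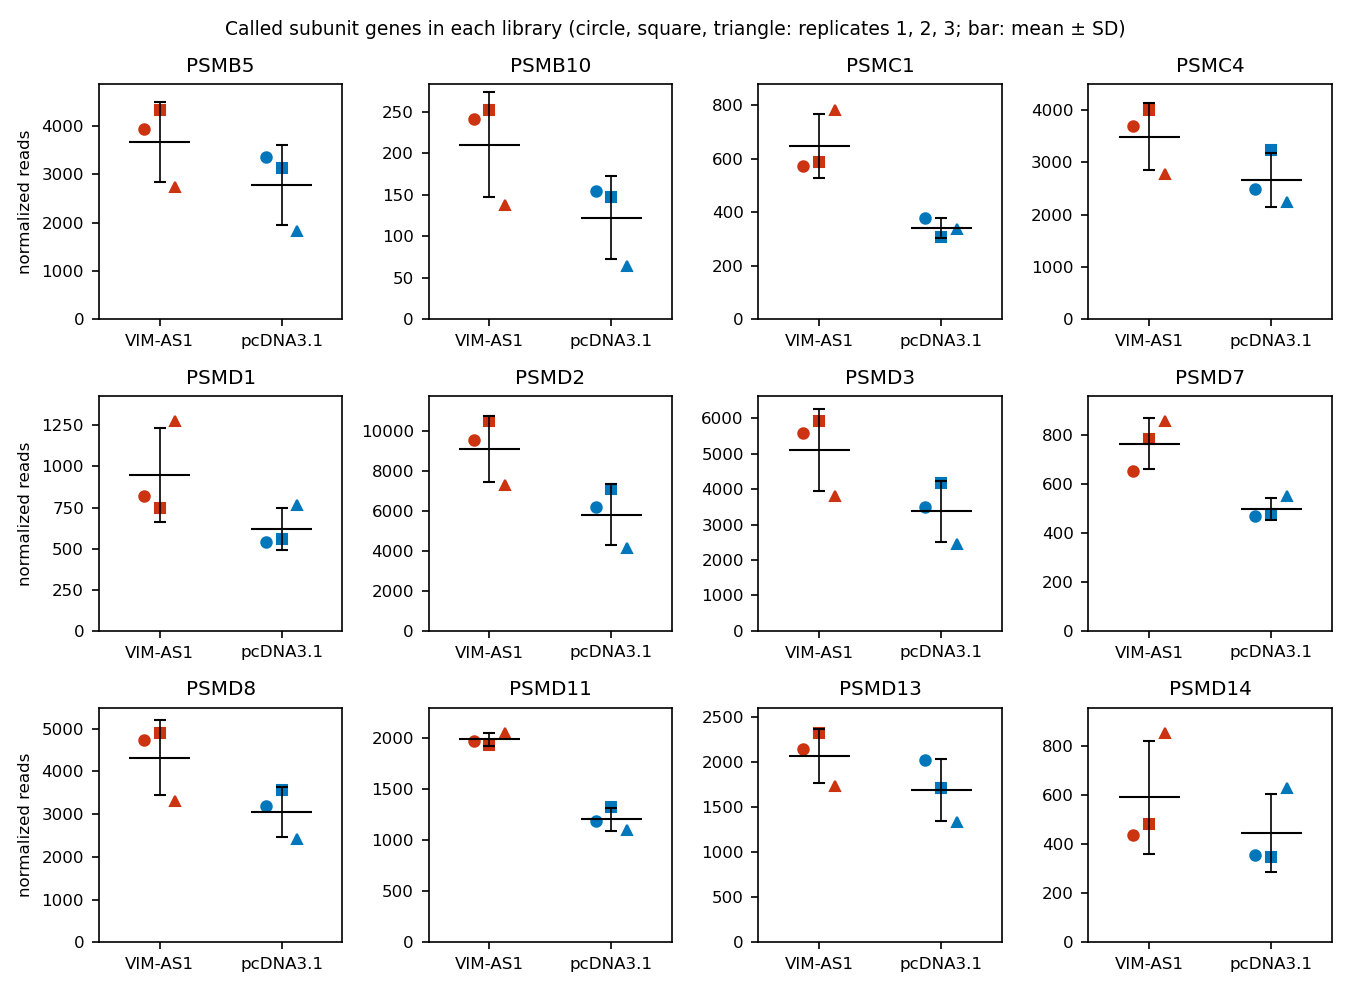
Normalized reads in each library of the 12 called proteasome genes, VIM-AS1 libraries left and pcDNA3.1 libraries right in each panel (circle, square and triangle: replicates 1, 2 and 3; line and bar: mean ± SD, n = 3 each). PSMC1, PSMD2, PSMD7 and PSMD11 show no overlap between groups, and in the other panels the triangles of the third libraries are shifted the same way in both groups.

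None of the 7 alpha subunits passed. PSMA7 came closest, with 6751, 7174 and 6934 normalized reads in the VIM-AS1 libraries, against 6133, 5746 and 5079 in the pcDNA3.1 libraries. These groups did not overlap, and the log2 fold change was 0.30 ± 0.11 (limma, adjusted p = 0.0539, or 0.00594 with the replicate block). With GC and length trends removed 2 of the 7 were called higher, beside 15.1% of all tested genes, a share not computed among the abundant genes. The 2 were PSMA7 (limma, adjusted p = 0.00167) and PSMA5 (adjusted p = 0.0400). PSMA1 lay at the other end, with 280.2, 275.3 and 345.9 in the VIM-AS1 libraries and 381.8, 239.5 and 284.3 in the pcDNA3.1 libraries, a log2 fold change of 0.013 ± 0.16. PSMA6 had 41.1, 26.5 and 46.0 normalized reads in the VIM-AS1 libraries against 39.3, 17.1 and 24.5 in the pcDNA3.1 libraries. At that depth its log2 fold change of 0.52 had an SE of 0.35, and no difference was detectable.

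The low counts of some alpha subunits stand beside their overlap with other genes. Of the principal transcripts of PSMA1, PSMA2 and PSMA6, 53.2%, 52.5% and 81.0% also lie in another protein-coding gene annotated on the same strand. The genes overlapping PSMA1 and PSMA2 had no entry among the deposited genes. The gene overlapping PSMA6 had at most 2.44 normalized reads in a library. How the authors' counting treated reads shared by overlapping genes was not given in the sources used here. Per kilobase of the longest principal transcript, PSMA6 had 36.8 normalized reads in the VIM-AS1 group and 26.2 in the pcDNA3.1 group, and PSMA2 had 36.0 and 31.5. PSMA7, with no such overlap, had 6981 in the VIM-AS1 group and 5675 in the pcDNA3.1 group. The levels of PSMA1, PSMA2 and PSMA6 are therefore uncertain, and whether the overlap lowered them was not tested.

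Of the constitutive beta ring only the catalytic subunit PSMB5 rose among 7 genes. With GC and length trends removed 4 of the 7 were called higher (PSMB1, PSMB5, PSMB6 and PSMB7), beside 15.1% of all tested genes. That share was not computed among the abundant genes, to which all 7 belong. PSMB5, which carries the chymotrypsin-like site, had 3931, 4341 and 2736 normalized reads in the VIM-AS1 libraries, against 3368, 3139 and 1836 in the pcDNA3.1 libraries. The third library was the lowest of each group, and the log2 fold change was 0.42 ± 0.10 (limma, adjusted p = 0.0066), but 0.40 with an adjusted p of 0.059 without VIM-AS1 replicate 2. PSMB7, with the trypsin-like site, had 6983, 7905 and 5772 in the VIM-AS1 libraries and 6793, 6288 and 4600 in the pcDNA3.1 libraries (0.23 ± 0.11, adjusted p = 0.15, or 0.0347 with the replicate block). PSMB2, of the same ring, had 0.23 ± 0.12 (adjusted p = 0.21, or 0.0326 with the replicate block). PSMB6, with the caspase-like site, had 2964, 3076 and 2290 in the VIM-AS1 libraries and 3033, 2707 and 1863 in the pcDNA3.1 libraries (0.15 ± 0.10, adjusted p = 0.35). PSMB3 was the one proteasome gene with a negative value, at 4942, 5775 and 3720 in the VIM-AS1 libraries against 5008, 5911 and 3835 in the pcDNA3.1 libraries (-0.032 ± 0.11, adjusted p = 0.88).

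Of the inducible subunits PSMB10 rose and PSMB8 and PSMB9 did not pass. PSMB10 had 241.3, 252.8 and 138.1 normalized reads in the VIM-AS1 libraries, against 154.4, 147.8 and 64.8 in the pcDNA3.1 libraries. The third library of each group had well under the level of the other two, and the log2 fold change was 0.83 ± 0.16 (limma, adjusted p = 0.00104). Of the principal PSMB10 transcript 45.3% also lies in another gene on the same strand, which had at most 42.8 normalized reads in a library. PSMB9 had 76.9, 82.3 and 44.0 in the VIM-AS1 libraries and 60.4, 53.8 and 24.5 in the pcDNA3.1 libraries (0.59 ± 0.24, adjusted p = 0.0945, or 0.0498 with GC and length trends removed). PSMB8 had 759.6, 938.6 and 594.5 in the VIM-AS1 libraries and 678.2, 860.1 and 540.2 in the pcDNA3.1 libraries (0.14 ± 0.12, adjusted p = 0.46).

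The balance of inducible against constitutive catalytic subunits was compared as a log2 ratio in each library with exact permutation tests, which cannot pass 0.05 with 3 libraries against 3. The log2 ratio of PSMB10 to PSMB7 was -4.85, -4.96 and -5.37 in the VIM-AS1 libraries, against -5.45, -5.40 and -6.13 in the pcDNA3.1 libraries, a difference of 0.60 with no overlap (two-sided exact permutation p = 0.1, which is the smallest that 3 against 3 allows, and 0.30 adjusted over 3 ratios). The ratio of PSMB9 to PSMB6 averaged -5.38 ± 0.26 in the VIM-AS1 libraries and -5.82 ± 0.33 in the pcDNA3.1 libraries (SD, n = 3 each, exact permutation p = 0.30). The ratio of PSMB8 to PSMB5 went the other way, averaging -2.26 ± 0.10 in the VIM-AS1 libraries and -1.98 ± 0.29 in the pcDNA3.1 libraries (SD, n = 3 each, exact permutation p = 0.30). Within replicate numbers 1, 2 and 3 the difference, VIM-AS1 minus pcDNA3.1, was 0.60, 0.44 and 0.75 for PSMB10 to PSMB7, 0.38, 0.42 and 0.52 for PSMB9 to PSMB6, and -0.060, -0.34 and -0.44 for PSMB8 to PSMB5. Each ratio thus had 1 sign in all 3 pairs, where the exact paired permutation test gave p = 0.25, the smallest that 3 pairs allow. Per kilobase, PSMB8 stood at 24.0% of PSMB5 in the VIM-AS1 group and 29.2% in the pcDNA3.1 group, and PSMB10 at 2.40% and 1.58% of PSMB7.

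**Figure D3:**
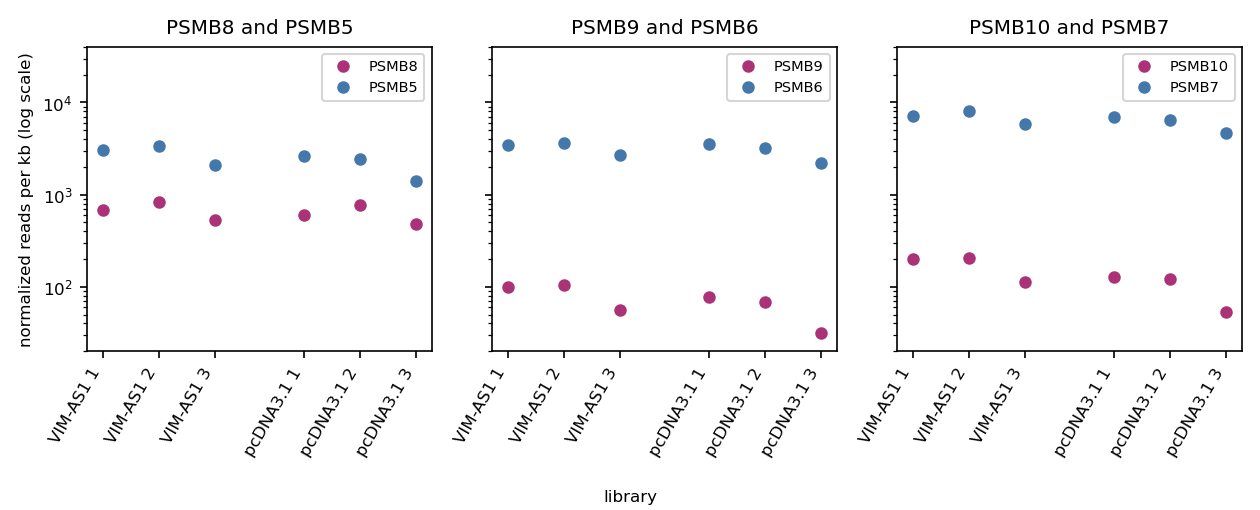
Normalized reads per kilobase of principal transcript (log scale) of each inducible catalytic subunit and its constitutive counterpart in the 3 VIM-AS1 libraries and the 3 pcDNA3.1 libraries. In every library the inducible subunit lies below its counterpart, by the least for PSMB8 and PSMB5.

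Levels per kilobase ranged widely among the subunits, with 260-fold between the highest and the lowest in the pcDNA3.1 group, or 115-fold without PSMA2 and PSMA6, whose levels are uncertain. PSMB4 had the highest group mean in both groups, with 7165 normalized reads per kilobase in the VIM-AS1 group and 6815 in the pcDNA3.1 group. The same 11 genes led in both groups. The other 4 of the leading 5, PSMB3, PSMB7, PSMC3 and PSMA7, had 6225 to 7027 per kilobase in the VIM-AS1 group and 5675 to 6362 per kilobase in the pcDNA3.1 group. The order of these 5 is not resolved: another of them stood above PSMB4 in VIM-AS1 replicates 1 and 3 and in pcDNA3.1 replicate 1. In the pcDNA3.1 libraries PSMB4 ran from 5547 to 7978 per kilobase and PSMA7 from 5099 to 6158. Lengths were those of the longest principal transcript in GENCODE 29, and with its shortest principal transcript PSMA4 would stand at 1479 rather than 366.7 per kilobase in the VIM-AS1 group and at 1301 rather than 322.8 in the pcDNA3.1 group.

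The direction was shared by the 2 sets of libraries. In replicates 1 and 2 the median log2 fold change of the 34 genes was 0.26, and in replicate 3 it was 0.32, beside 0.10 and 0.15 over the abundant genes. Both values were positive for 31 of the 34 genes and for all 17 of the regulatory particle, where this held for 53.8% of the abundant genes and 35.4% of all tested genes. The exceptions were PSMA1 (-0.12 in replicates 1 and 2, 0.28 in replicate 3), PSMA3 (0.12 and -0.065) and PSMB3 (-0.026 and -0.044). Groups did not overlap in 5 of the 34, all higher, namely PSMA7, PSMC1, PSMD2, PSMD7 and PSMD11, beside 9.5% of all tested genes higher and 10.3% lower, and 15.1% higher and 5.81% lower among the abundant genes, so that this count is near the background.

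**Figure D4:**
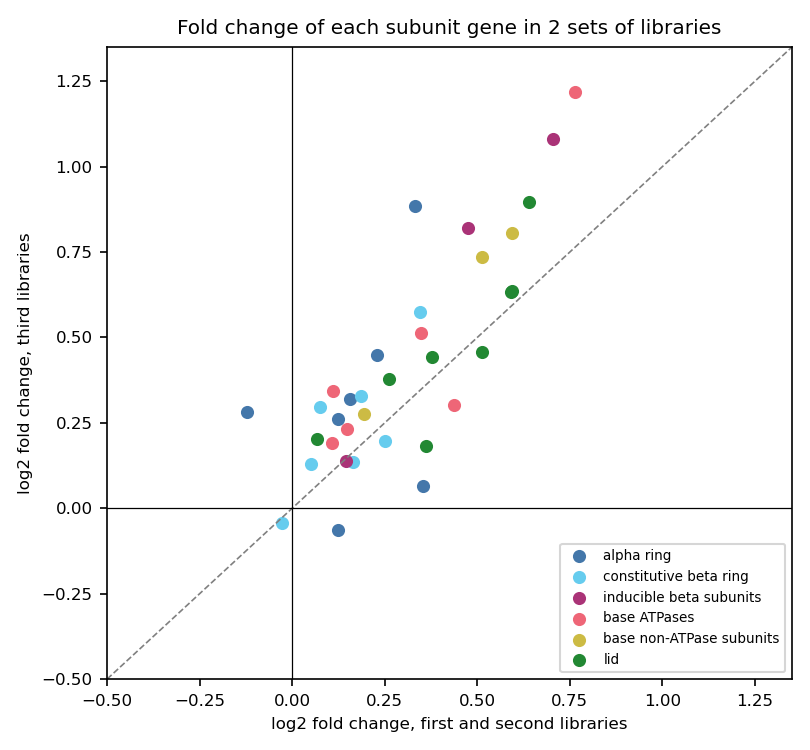
Log2 fold change, VIM-AS1 over pcDNA3.1, of each of the 34 proteasome genes in the first and second libraries (horizontal) and in the third libraries (vertical), coloured by subcomplex, with the line of equal values. Both values are positive for 31 genes, and PSMC1 and PSMB10 lie farthest from 0 in both sets.

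The 34 genes together took 0.522%, 0.522% and 0.541% of recovered reads in the VIM-AS1 libraries and 0.472%, 0.430% and 0.449% in the pcDNA3.1 libraries. Mitochondrially encoded reads were fewer in the same libraries, with 7.06%, 6.86% and 5.57% in the VIM-AS1 libraries against 8.73%, 14.3% and 11.8% in the pcDNA3.1 libraries. Of the reads that were not mitochondrial, the proteasome genes took 0.562%, 0.560% and 0.573% in the VIM-AS1 libraries and 0.517%, 0.501% and 0.510% in the pcDNA3.1 libraries, which again did not overlap. In these bulk libraries more cells with a given level and more RNA per cell cannot be told apart. With trends of each library with GC content and exon length removed, the fit with the term called 21 of the 34, 8 of the core and 13 of the regulatory particle, beside 15.1% of all tested genes called higher and 6.84% lower. No share among the abundant genes was computed for this fit. With the trends kept, 23% of the abundant genes were called higher, against 11.5% of all tested genes. Without the term these trends' removal gave 10 of the 34, beside 7% of all tested genes called higher and 3.38% lower. In the fit with the term the median log2 fold change was then 0.29 over the core particle and 0.51 over the regulatory particle, beside 0.15 over the abundant genes. Counts of the particles were thus closer, and no test of the difference was made.

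Genes around the particle were called in part, and the lists below are read against the 23% of abundant genes called higher and their median of 0.11. Counts of 3 in a list of 9 or 10 are near that 23%. Counts with the replicate block are read against the 31.6% of abundant genes called higher with it. NFE2L1, the factor that drives proteasome genes, had 3143, 3184 and 2587 normalized reads in the VIM-AS1 libraries, against 2041, 1990 and 1396 in the pcDNA3.1 libraries. Its groups did not overlap and it rose (log2 fold change 0.73 ± 0.10, limma, adjusted p = 5.74e-05). VCP, the ATPase that extracts proteins, NFE2L1 among them, from the endoplasmic reticulum membrane, had 6959, 7401 and 5895 in the VIM-AS1 libraries against 4133, 4804 and 3497 in the pcDNA3.1 libraries, and rose by 0.71 ± 0.11 (limma, adjusted p = 0.000119). Of the 9 genes of this control list 4 rose, the others being the small MAF genes MAFF (0.63 ± 0.13) and MAFK (0.38 ± 0.12), and none fell, with a median log2 fold change of 0.28. The small MAF gene MAFG (-0.020, adjusted p = 0.93), NFE2L2 (-0.21), DDI2, the protease that activates NFE2L1 (-0.0091), and the deglycosylase NGLY1 (0.28) did not pass.

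Of the 9 assembly factors 3 rose and none fell, with a median of 0.11, both near those of the abundant genes. They were POMP, the chaperone of core particle maturation (869.0 ± 102 normalized reads in the VIM-AS1 group and 671.3 ± 84.1 in the pcDNA3.1 group, SD, n = 3 each, log2 fold change 0.37 ± 0.11, limma, adjusted p = 0.0261), and the base chaperones PSMD5 (0.46 ± 0.11) and PSMD9 (0.35 ± 0.12). Of the core chaperones PSMG1 to PSMG4, PSMG4 had the lowest value (-0.34 ± 0.12, adjusted p = 0.0567), and it was called lower with the replicate block (adjusted p = 0.0124) and with GC and length trends removed (adjusted p = 0.0117). Of 5 activator and inhibitor genes only PSME3, a nuclear activator of the core particle, rose, with 4793, 5650 and 4177 normalized reads in the VIM-AS1 libraries against 2386, 3409 and 2224 in the pcDNA3.1 libraries. That is a log2 fold change of 0.88 ± 0.12 (limma, adjusted p = 6.55e-05) with no overlap. The interferon-inducible activator genes PSME1 (-0.32 ± 0.11, adjusted p = 0.0522) and PSME2 (0.058) did not pass, and with the replicate block PSME1 was called lower (adjusted p = 0.00485). Of the particle subunits outside the 34, the ubiquitin receptor ADRM1 had 0.28 ± 0.10 (adjusted p = 0.0532) and SEM1 had -0.15.

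Of the 9 deubiquitinases and shuttles 3 rose and none fell, namely UBQLN4 (3636, 4003 and 2796 normalized reads in the VIM-AS1 libraries against 2025, 2460 and 1392 in the pcDNA3.1 libraries, log2 fold change 0.85 ± 0.11), UBQLN1 (0.55 ± 0.10) and RAD23B (0.34 ± 0.10), and all 9 values were positive with a median of 0.29. The count was 5 with the replicate block, beside 31.6% of abundant genes called higher. Of the 6 genes of ubiquitin and its activation, the activating enzyme gene UBA1 rose (0.42 ± 0.14, adjusted p = 0.0394), while RPS27A had 0.29 and the median was -0.035. Of 10 antigen processing genes 3 rose and none fell, against 7 higher with the replicate block: ERAP1, an aminopeptidase that trims peptides (94.1 ± 26.7 normalized reads in the VIM-AS1 group and 30.6 ± 9.88 in the pcDNA3.1 group, log2 fold change 1.60 ± 0.24, limma, adjusted p = 0.000113), HLA-B (0.54 ± 0.11) and the peptide transporter gene TAP1, a neighbour of PSMB9. TAP1 had 851.3, 994.4 and 658.0 normalized reads in the VIM-AS1 libraries against 648.4, 724.5 and 417.8 in the pcDNA3.1 libraries (0.50 ± 0.11). Reads of HLA-B may be shared with its near-identical relatives, so its value is uncertain.

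Other assemblies gave a frame for these counts. Of the COP9 signalosome, whose subunits are related to those of the lid, 3 of 9 rose, among them COPS7A (0.48 ± 0.10) and COPS4 (0.62 ± 0.15), with a median of 0.30. With the replicate block 6 of the 9 were called higher, beside 31.6% of abundant genes, and COPS2 lower (-0.31, adjusted p = 0.021). Of the CCT chaperonin, another ring of cytosolic subunits, 7 of 8 rose, with a median of 0.58, a range of 0.25 to 0.69, and non-overlapping groups in 6. CCT7 (0.69 ± 0.11) and TCP1 (0.58 ± 0.10) were among them. The regulatory particle, at 10 of 17 and a median of 0.40, stood between these 2 lists. None of these genes outside the particle was called by limma without the term.

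**Figure D5:**
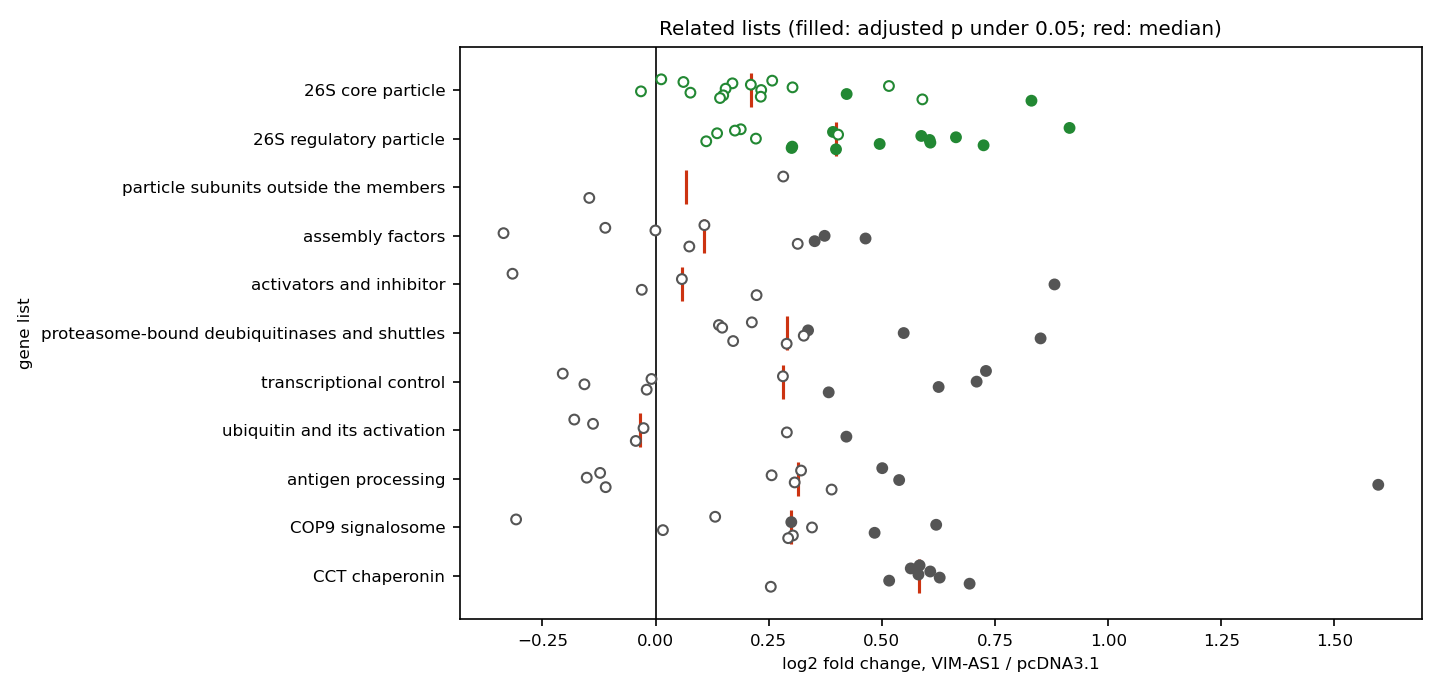
Log2 fold change, VIM-AS1 over pcDNA3.1, of each tested gene of the core particle, the regulatory particle and the lists around them (filled: adjusted p under 0.05 in limma with a term for the third libraries; red line: median of the list). The regulatory particle has 10 filled points of 17 and the core particle 2 of 17, and ERAP1 is the point farthest right.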

How the data were processed

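Per the labels' protocols, each library took 1.3 µg of RNA. The tools fastp, HISAT2 and featureCounts and the build hg38 are named in the submitters' processing notes. For annotation, strand setting and scaling, the sources used here give nothing. The deposited values are a signal per gene, namely counts divided by 1 factor per library: 100% of values were whole multiples of a step within 0.01 read. These factors matched DESeq2's median-of-ratios size factors of the recovered reads, with a largest relative difference of 3.9e-11. The 20927 genes averaging 1 or more were tested with limma (version 3.58.1, R 4.3.3; intensity trend, log2(value + 1), two-sided, Benjamini-Hochberg over all tested genes, threshold 0.05), without and with a term for the third libraries. Fold changes on this scale understate changes of low genes. Same-numbered libraries deviated together (Pearson r of 0.32, 0.72 and 0.84 over 13175 genes), so replicate numbers were taken as pairing, from the data and not from the labels. For replicates 1 this is weak: VIM-AS1 1 with pcDNA3.1 2 gave 0.42 and VIM-AS1 2 with pcDNA3.1 1 gave 0.33. Deviations from a group mean cancel within the group, so a shift shared by the third libraries also makes replicates 1 and 2 deviate together. The correlations of replicates 1 and 2 therefore cannot by themselves show a pairing, and results with the replicate block carry this limit. edgeR (4.0.16) and DESeq2 (1.42.0) were run on recovered reads. Floors are 3 reads and cover counting error only. The 34 genes and all lists were chosen with earlier results of these data known. Genes with values in every library are the catalytic subunits, the highest and lowest of each subcomplex and the 8 smallest adjusted p. PSMA7, PSMC4, PSMD14 and further names were chosen after their values were seen.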

Additional observations from a re-analysis of the deposited data

How the results depend on the processing

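Of 34 genes, the count called higher by limma without a term was 0, beside 0.0143% of all tested genes. It was 1 with DESeq2 (0.636% of all tested genes), 18 with the replicate block (15.8%), 10 with GC and length trends removed (7%) and 25 with both of these (18.8%). It stayed at 0 with edgeR, either scaling, both filters, the pseudocount of 0.1, each library left out, and the third libraries of both groups left out. In these settings at most 0.855% of all tested genes were called higher. With the term for the third libraries the count of proteasome genes was 12, beside 11.5% of all tested genes called higher. It was 18 with the replicate block (15.8%), 21 with GC and length trends removed (15.1%) and 25 with both (18.8%). It was 7 where a log2 fold change past 0.5 was also asked for, a count without a share over all genes. The shares given are over all tested genes, not over the abundant ones alone. Leaving out 1 library gave 0 to 17. The count was 0 without VIM-AS1 replicate 3 (0.674% of all tested genes called higher) or pcDNA3.1 replicate 3 (0.607%). It was 8 without VIM-AS1 replicate 2 (6.67%) and 17 without pcDNA3.1 replicate 1 (13.1%). A fit without the third library of 1 group rests on the first and second libraries, since the term absorbs the other. No alternative called a proteasome gene lower. The median log2 fold change of 0.28 ran from 0.22 to 0.35 over its alternatives, with 0.26 to 0.32 when 1 library was left out. Over 19 named genes and their alternatives, 250 of 285 values kept direction and call, 19 lost the call, 7 gained it and 9 changed sign. The last were PSMA1, at -0.048 with library size scaling, -0.025 with edgeR, -0.014 with DESeq2 and -0.14 to 0.24 when 1 library was left out (-0.12 without the third library of either group), and PSMB3, at -0.10 to 0.034 when 1 library was left out (0.030 without VIM-AS1 replicate 1) and 0.17 with GC and length trends removed. The cause was not tested. The 3 catalytic ratios kept their sign, with differences of -0.45 to -0.17 for PSMB8 to PSMB5, 0.25 to 0.59 for PSMB9 to PSMB6 and 0.36 to 0.75 for PSMB10 to PSMB7, and exact permutation tests paired by the replicate block (added after seeing the data) gave p = 0.25 for each. Depth limits PSMA2, PSMA6 and PSMB9, which have under 100 normalized reads in every library.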
